A study of Mus musculus with 16 samples.

Results

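C/D box snoRNA fragments were taken here as adapter-trimmed reads of 15 nt or more that matched, in sense and without mismatch, a mouse gene whose symbol begins with Snord, and that matched no miRNA hairpin. The GENCODE M21 annotation (GRCm38) held 98 such genes among 6077 names of small RNA genes. Of the 98, 76 had at least 20 reads that matched that name and no other, and were tested. The other 22 had no read of their own: 17 of them are the Snord116 names, which had no read of any kind, and Snord1c, Snord50a and Snord50b had only reads shared with another name. The 16 libraries held 5793768 such reads in 4093 distinct fragments, and no read matched a Snord gene in antisense. C/D box snoRNAs that the annotation lists under other symbols were not analysed here.

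C/D box snoRNAs are short nuclear RNAs that mostly guide the methylation of ribosomal RNA at the 2′ hydroxyl of the ribose. They are named for the C box near the 5′ end and the D box near the 3′ end, which a terminal stem brings together, and many hold a second, less conserved pair (C′ and D′) inside. Fibrillarin, the methyltransferase, and its partner proteins, among them Nop56, assemble on these boxes, and the guide sequence that pairs with the target lies directly upstream of the D or the D′ box. In mammals most of them are cut out of introns of host genes, many of which encode ribosomal proteins or translation factors.

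The cells were mesenchymal stem cells of C57BL/6 mice, sequenced as 2 libraries in each of 8 groups. WT cells were Dicer f/f and KO cells were Dicer -/-, and both carried mCherry, a fluorescent control protein. The other 6 groups were Dicer -/- cells that carried human Dicer (hsDicer) or its mutants D1320A (RNase IIIA domain), D1709A (RNase IIIB domain), D1320A/D1709A (both), K70A (helicase domain) and Y971A/Y972A (PAZ domain). Dicer is the nuclease that cuts miRNA precursors, and the study asked what its domains do. The labels do not say whether the libraries of a group came from separate cultures, so p-values measure only the spread between these libraries, which may be technical.

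Libraries held 10331036 to 20502254 inserts of 15 nt or more, and levels are given in CPM (counts per 1000000 inserts). Replicate 1 was sequenced to 41 nt and replicate 2 to 51 nt, and the longest inserts that could be trimmed were therefore 36 and 46 nt. Reads without adapter were kept as fragments at least as long as the read. The replicate numbers also differed in how varied the libraries were: 6 of the 8 replicate 1 libraries held 128 to 207 distinct Snord fragments, against 977 for D1320A and 556 for D1709A in replicate 1 and 634 to 1458 in replicate 2. WT hairpin reads of the mesenchymal miRNA list summed to 261834 and 170823 CPM in replicates 1 and 2. That list held Mir143, Mir145, Mir199a-1, Mir199a-2, Mir214, Mir140, Mir22, Mir21a and Mir29a. Its sum is not split by member, so it does not show how much came from any of them. Reads of the blood list summed to 0 and 0.78 CPM, those of the neuron list to 0 and 57.1 CPM and those of liver miR-122 to 0 in both.

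The most read fragment of a gene is called its leading fragment, and the 10 leading fragments with the highest mean CPM are shown, because the 3′ ends of most share a feature. Capitals mark the letters TGATGA, the core of the C box, and CTGA, the letters of the D or D′ box, and sequences are written 5′ to 3′ as in the annotation, with T for U.
Snord2: CTGAaatgaagagaatactcttgCTGAtc
Snord110: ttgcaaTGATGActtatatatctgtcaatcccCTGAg
Snord57: tggaaaggatgaacgaacttggcCTGAcc
Snord43: actctgtgCTGAatgtcaagttCTGAtt
Snord69: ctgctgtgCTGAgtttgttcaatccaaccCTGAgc
Snord45c: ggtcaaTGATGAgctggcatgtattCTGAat
Snord19: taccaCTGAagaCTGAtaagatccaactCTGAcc
Snord68: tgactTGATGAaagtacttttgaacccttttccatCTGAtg
Snord78: tgtaatgatgttgatcaaatgtCTGAgc
Snord73a: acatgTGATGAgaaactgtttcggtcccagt
In 8 of these 10 fragments the last CTGA was followed by exactly 2 bases, in that of Snord110 it was followed by 1, and that of Snord73a held no CTGA. The whole sequences of 2 genes show where the fragments lie. Snord2 spans chr16:23108953-23109021 on the plus strand, inside Eif4a2, and Snord57 spans chr2:130278016-130278087 on the plus strand, inside Nop56.
Snord2, 69 nt: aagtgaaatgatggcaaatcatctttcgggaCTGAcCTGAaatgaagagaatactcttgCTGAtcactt
Snord57, 72 nt: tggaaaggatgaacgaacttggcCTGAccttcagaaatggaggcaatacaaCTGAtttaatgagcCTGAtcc
The Snord2 fragment is bases 37 to 65, which end after the D box. The Snord57 fragment is bases 1 to 29, which end after the first CTGA of the gene.

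The boxes themselves were read from the gene sequences. Of the 76 tested genes, 74 held CTGA in their last 20 nt, 56 held it earlier, and 50 held TGATGA in their first 30 nt. Among 42 annotated genes named Snora, the other large class of snoRNAs (H/ACA box), these counts were 5, 22 and 0. A gene without these exact letters can carry a variant box, as Snord2 does not hold TGATGA anywhere. These letter counts describe the annotated sequences and do not mark tested binding sites.

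**Figure D1:**
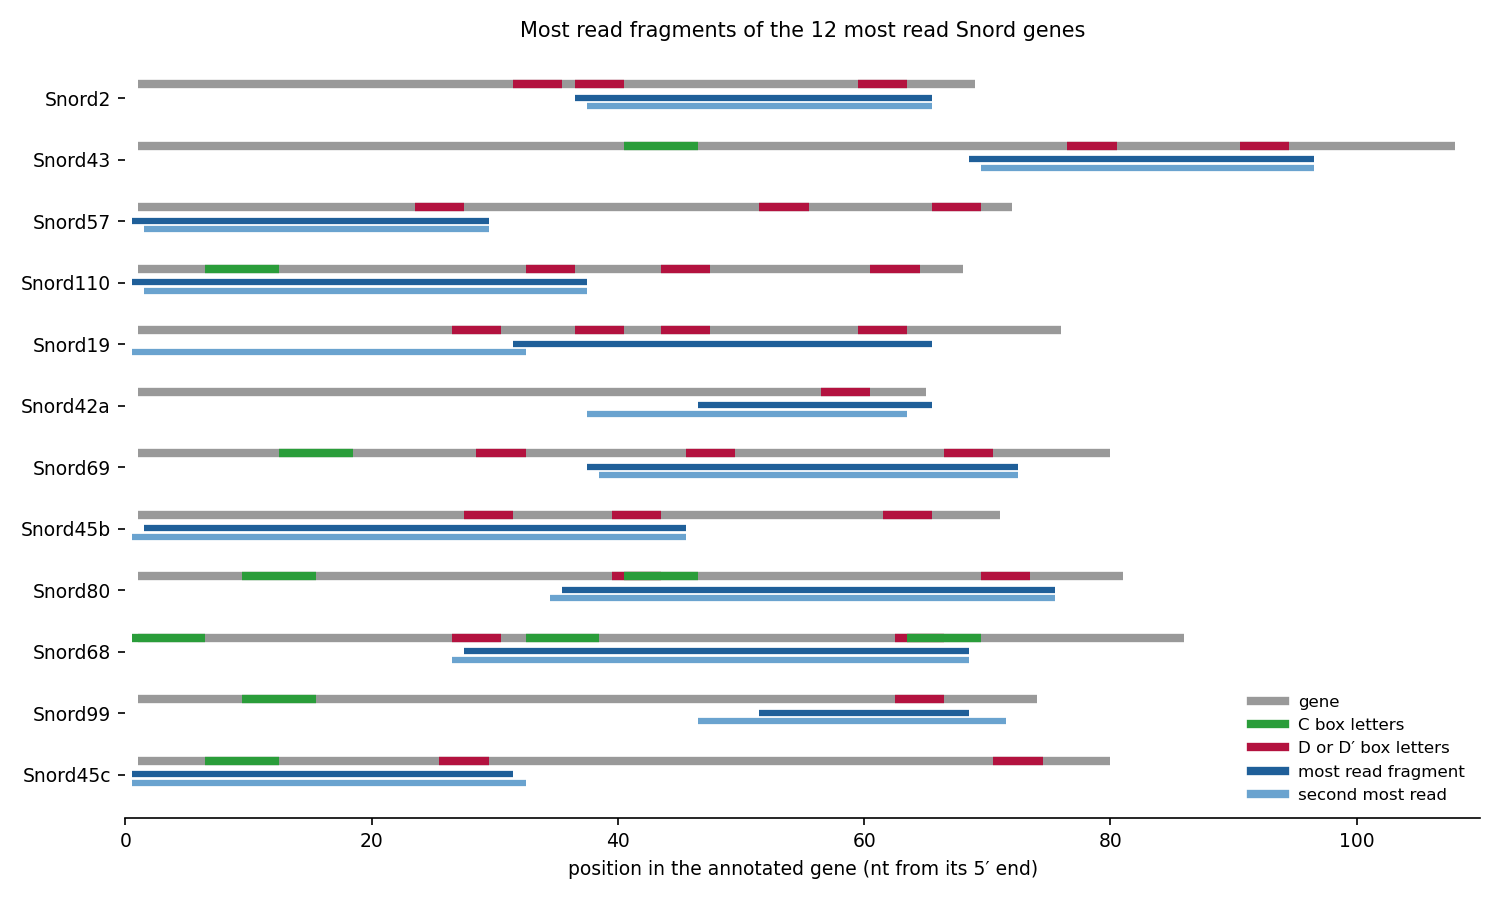
Position of the most read and the second most read fragment (dark and light blue) along each of the 12 most read Snord genes (grey), with C box letters in green and D or D′ box letters in red; the axis counts nucleotides from the annotated 5′ end. The most read fragments of Snord2, Snord43, Snord19 and Snord69 end just after the last red mark before the 3′ end, while those of Snord57, Snord110, Snord45b and Snord45c begin at or 1 base after the 5′ end and end after an inner red mark.

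Reads of 15 to 36 nt stopped most often 2 bases past the box letters. Among reads of 15 to 36 nt whose adapter was seen, 79.5% ± 5.65 (SD over 16 libraries) stopped exactly 2 bases after a CTGA, from 68.4% in KO replicate 1 to 88.3% in KO replicate 2. Of the 5472 positions at which a fragment of 15 nt or more could stop in the 76 genes, 2.81% lie exactly 2 bases after a CTGA. With every gene of 100 reads or more weighted equally, the share was 55.1% on average and between 47.1% and 65.7% in single libraries. No other distance came near it. The next most used was 4 bases, at 5.96% ± 3.96 of the reads and 12.9% with genes weighted equally. Stops 6 to 15 bases after a CTGA took under 0.1% of the reads each, on average.

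Stops 0 to 4 bases after a CTGA took 89.2% ± 4.15 of the reads (76.9% to 95.0%) and 13.8% of the positions. Without Snord2 the mean was 81.9%, and with genes weighted equally it was 75.04%. Reads of Snora genes, measured in the same way, stopped there at a median of 0% and at most 3.32%, from 2 to 5404 reads a library. This window was chosen after the values were seen, so the shares are a description without a test.

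The share that stopped exactly 2 bases after a CTGA was 76.7% and 84.0% in WT replicates 1 and 2, 68.4% and 88.3% in KO, 75.2% and 85.3% in hsDicer, 80.4% and 80.6% in D1320A, 73.0% and 85.1% in D1709A, 77.3% and 82.7% in D1320A/D1709A, 78.3% and 82.5% in K70A, and 70.5% and 83.3% in Y971A/Y972A. Group means ran from 76.9% to 80.5%, and every library lay far above the 2.81% of positions, those of KO and of D1320A/D1709A included. Replicate 2 was the higher library in all 8 groups, but with genes weighted equally replicate 1 was higher in 7 of 8 (64.9% against 51.4% in WT), and D1709A was the exception (50.7% against 52.7%).

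**Figure D2:**
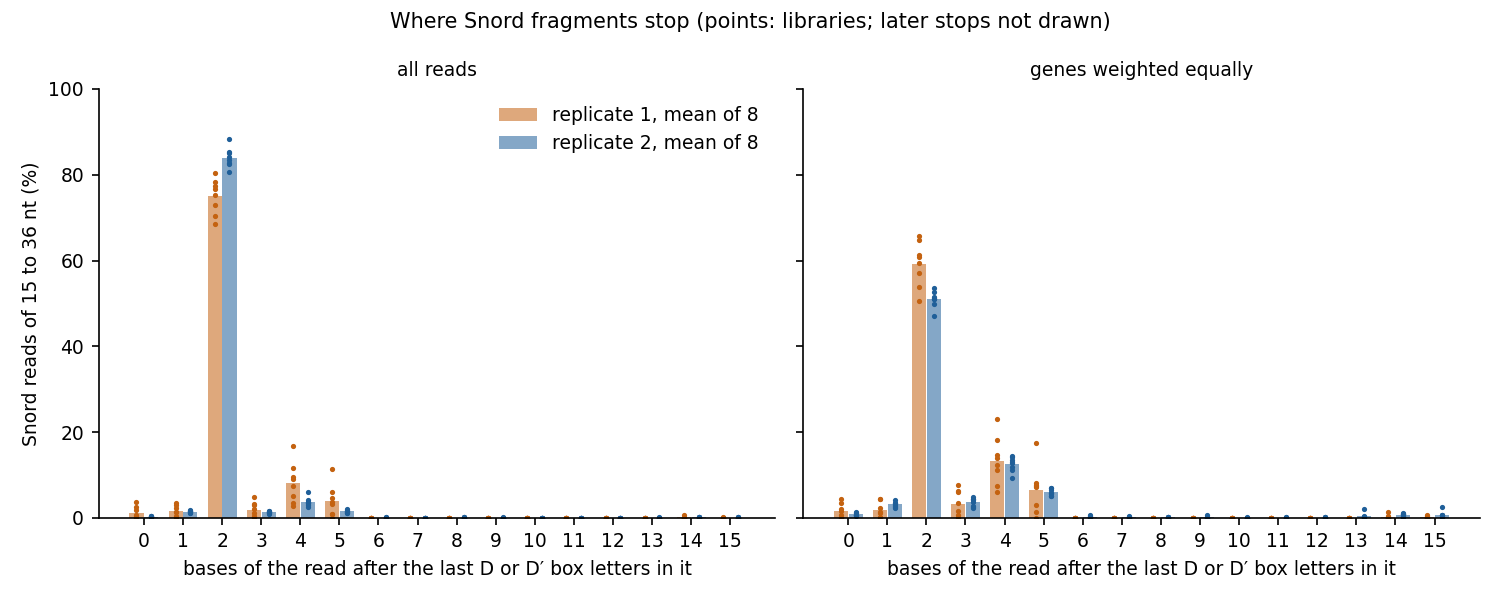
Percent of Snord reads of 15 to 36 nt by the number of bases of the read that follow the last D or D′ box letters in it, over all reads (left) and with genes weighted equally (right); bars are means of 8 libraries, points are libraries, and later stops are not drawn. The bar at 2 bases stands above all others in both panels, with libraries between 68.4% and 88.3% on the left.

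Counted by reads, most of these stops followed the D box near the 3′ end. Of the reads that stopped 0 to 4 bases after a CTGA, 81.2% ± 8.05 did so at a CTGA in the last 20 nt of the gene and 18.8% at an earlier one. In replicate 2 the first share kept to 84.1% to 86.3%, and in replicate 1 it spread from 63.5% to 89.4%. Snord2, whose leading fragment ends after its D box, held 29.7% of the reads with 1 name on average. The share is not given without Snord2 or with genes weighted equally. By gene, the most read fragment stopped 0 to 4 bases after a CTGA in 54 of 76 genes. It started within 5 nt of the annotated 5′ end in 29 genes and stopped within 5 nt of the annotated 3′ end in 35. Its length ran from 17 to 46 nt with a median of 32 nt. The most read fragment is that with the highest mean CPM, and it was seen in all 16 libraries for 11 of the 76 genes. A single library can set it: that of Snord99 was at 1209 CPM in KO replicate 1, against a median of 0.0722 CPM over the libraries.

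Of the genes whose leading fragment did not stop there, the most read were Snord42a (623 CPM on average), where it stopped 5 bases after CTGA, Snord12 (367), where it stopped 22 bases after, and Snord83b (363) and Snord34 (261), where it held no CTGA. Their leading fragments were at 18.6 to 89.3 CPM on average. That of Snord42a took 4.32% of its gene's reads, and was at 295 CPM in Y971A/Y972A replicate 1 against a median of 0 over the 16 libraries. Higher leading fragments without that stop came from Snord73a, of Rps3a1, and Snord14e, hosted in the chaperone gene Hspa8. Snord73a gave 2 forms that both stopped at base 32: the 31 nt form took 41.3% of its reads and led in 8 libraries, and a form 1 base longer at the 5′ end took 34.6% and led in the other 8. The 31 nt form had a mean of 159 CPM, and 84.98 CPM without KO replicate 1, where it was at 1277. Snord14e gave a 42 nt fragment of bases 1 to 42 (149 CPM), printed here because it holds the C box letters and no CTGA.
Snord14e: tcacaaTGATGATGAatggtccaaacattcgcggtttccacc

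Many genes gave fragments mostly from one side. Of 61 genes with 10 CPM or more on average, 10 had 90% or more of their reads of 15 to 36 nt centred 5′ of the middle of the gene, 22 had 10% or less there, and 29 lay between. Snord57 had 99.7% on the 5′ side, Snord45c 98.6% and Snord12 95.6%, while Snord2 had 0.709%, Snord42a 2.00% and Snord43 2.17%. The side that held the majority was the same in replicates 1 and 2 for 49 of 60 genes with such reads in both, and the same in WT and KO for 52 of 59. Snord80 was one that differed, with 59.5% on the 5′ side in replicate 1 and 16.8% in replicate 2.

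3′ ends were more uniform than 5′ ends in most genes of the replicate 2 libraries. There, the most used stop of a gene took 57.3% to 72.9% of its reads (median gene of each library) and the most used start 49.6% to 55.3%, and the stop was the more uniform end in 35 to 46 genes a library against 6 to 21 for the start. In replicate 1, with its few distinct fragments, the median over libraries was 99.6% for starts and 99.96% for stops. This difference was not tested.

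Snord2, from the gene of the translation initiation factor Eif4a2, was the most read member, with 6669 ± 3103 CPM (SD, 16 libraries), and led in 13 of 16 libraries. Its 29 nt fragment was seen in all 16 and made up 74.1% of its reads on average. That fragment was at 1747 and 4873 CPM in WT replicates 1 and 2, 963 and 8836 in KO, 3024 and 5532 in hsDicer, 5279 and 7225 in D1320A, and 4095 and 5521 in D1709A. In D1320A/D1709A it was at 6893 and 9149 CPM, in K70A at 1878 and 5706, and in Y971A/Y972A at 2104 and 7385. It was higher in replicate 2 in every group, and the groups overlapped widely.

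Snord43 came second, with 3010 ± 2114 CPM, and led in KO, K70A and Y971A/Y972A of replicate 1. It lies in an intron of Rpl3, a ribosomal protein gene, at chr15:80082847-80082954 on the minus strand, and the annotation gives it the biotype miRNA. It was at 780 and 1601 CPM in WT, 8061 and 5544 in KO, and 1090 and 6118 in hsDicer. Both KO libraries lay above both WT libraries, while hsDicer had one library near each. Its most read fragment, bases 69 to 96 of 108, took 18.5% of its reads on average, from 1.66 CPM in hsDicer replicate 1 to 2919 CPM in KO replicate 1, and a 27 nt form that began 1 base later took 11.5%.

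Snord57 and Snord110 share the host gene Nop56, which encodes a core protein of the C/D box particle itself. Snord57 had 1260 ± 668 CPM. Its 29 nt fragment was the most read fragment of the gene in all 16 libraries and took 79.6% of its reads, from 239 CPM in WT replicate 1 to 2572 CPM in D1320A/D1709A replicate 1, with a median of 825. Snord110 had 1155 ± 1270 CPM, and the spread followed the replicate number. Its 37 nt fragment was at 923 to 3726 CPM in replicate 2, with a median of 2223, and at 0 in replicate 1. A 37 nt insert leaves only 4 adapter bases in a 41 nt read, too few to be trimmed, and the 5 bases of Snord110 that follow base 37 are the same as the first adapter bases, so such an insert was counted as a read of 41 nt. Those reads were at 0 to 281 CPM in replicate 1, with a median of 28.2. Even counted this way, the highest replicate 1 library stayed below the lowest of replicate 2.

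The other 8 of the 12 most read genes had means of 381 to 830 CPM. Snord19 (830 CPM) and Snord69 (616) lie in Gnl3, which encodes the nucleolar protein nucleostemin. Snord42a (623) lies in Rpl23a, Snord45b (608) and Snord45c (381) in Rabggtb, Snord80 (535) in Gas5, Snord68 (507) in Rpl13, overlapping Gm20388, and Snord99 (429) in Snhg12. Gas5 and Snhg12 are hosts without a known protein product. These 12 genes held 74.6% to 80.1% of the reads with 1 name in replicate 2 and 60.5% to 81.1% in replicate 1. Low and high libraries differed by far more in replicate 1: Snord68 ran from 0.173 to 514 CPM there and from 394 to 1256 CPM in replicate 2, and Snord45c from 0.116 to 1089 CPM against 65.2 to 306.0 CPM.

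**Figure D3:**
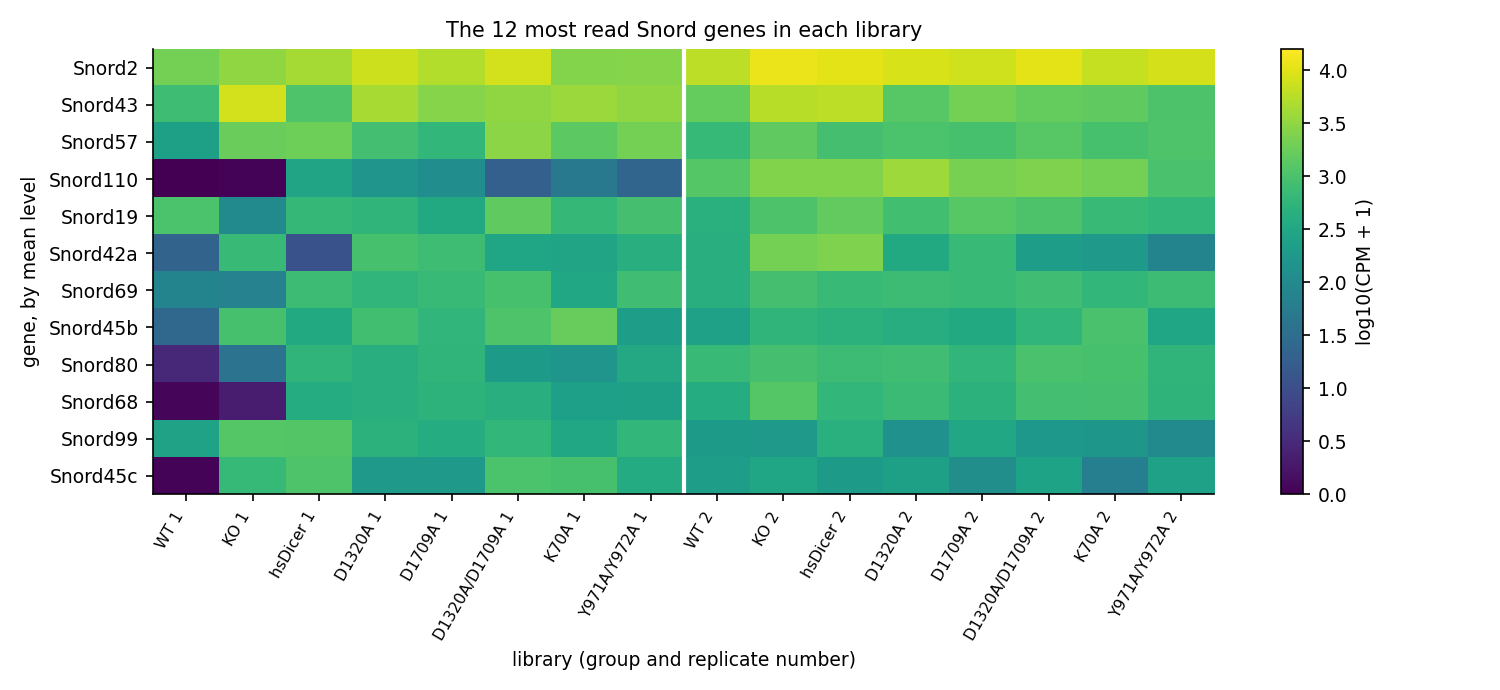
Level of the 12 most read Snord genes in each library as log10(CPM + 1), with replicate 1 to the left of the white line and replicate 2 to the right. Snord2 is high across the map, Snord110 is low in all replicate 1 libraries (at most 281 CPM) and high in all replicate 2 libraries (at least 974 CPM).

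All Snord reads together were higher in both KO libraries than in either WT library. They made up 8607 and 16558 CPM in WT replicates 1 and 2, 29985 and 36812 in KO, and 16240 and 34989 in hsDicer. The mutants had 24715 and 26633 CPM in D1320A, 19758 and 22595 in D1709A, 32231 and 28629 in D1320A/D1709A, 19254 and 21339 in K70A, and 19985 and 19806 in Y971A/Y972A. Of these reads, those over 36 nt were 13.6% and 41.6% in WT, 27.9% and 55.4% in KO, and 14.8% and 67.6% in hsDicer. Overlap between groups among inserts of 15 to 36 nt alone is not given here. Over reads of all lengths, KO and WT were the pair, of 8 pairs of groups compared, whose libraries did not overlap. KO was 2.65 times WT by the means, 3.48 times within replicate 1 and 2.22 times within replicate 2. The 2-sided exact permutation test gave p = 0.333, the smallest that 2 against 2 libraries allow, and an adjusted p of 1 over the 8 pairs.

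The miRNA share of the libraries moved with this difference. Reads in miRNA hairpins were 47.7% and 38.01% of inserts in WT, 2.69% and 1.90% in KO, and 38.7% and 15.3% in hsDicer. These reads are part of the number by which CPM is scaled, and their part in the difference was not tested beyond the scale that follows. Scaled to inserts outside hairpins, Snord reads were at 16471 and 26711 in WT and 30813 and 37524 in KO, which still did not overlap, with a ratio of 1.58 by the means (1.87 and 1.40 within replicates). On that scale hsDicer had 26503 and 41309, D1320A 26796 and 27899, D1709A 21727 and 23736, D1320A/D1709A 32856 and 28989, K70A 28214 and 27036, and Y971A/Y972A 27279 and 21340. There the libraries of D1709A also lay below those of hsDicer (ratio 0.67, exact permutation p = 0.333). In total RNA, more fragments per snoRNA and more snoRNA cannot be told apart.

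**Figure D4:**
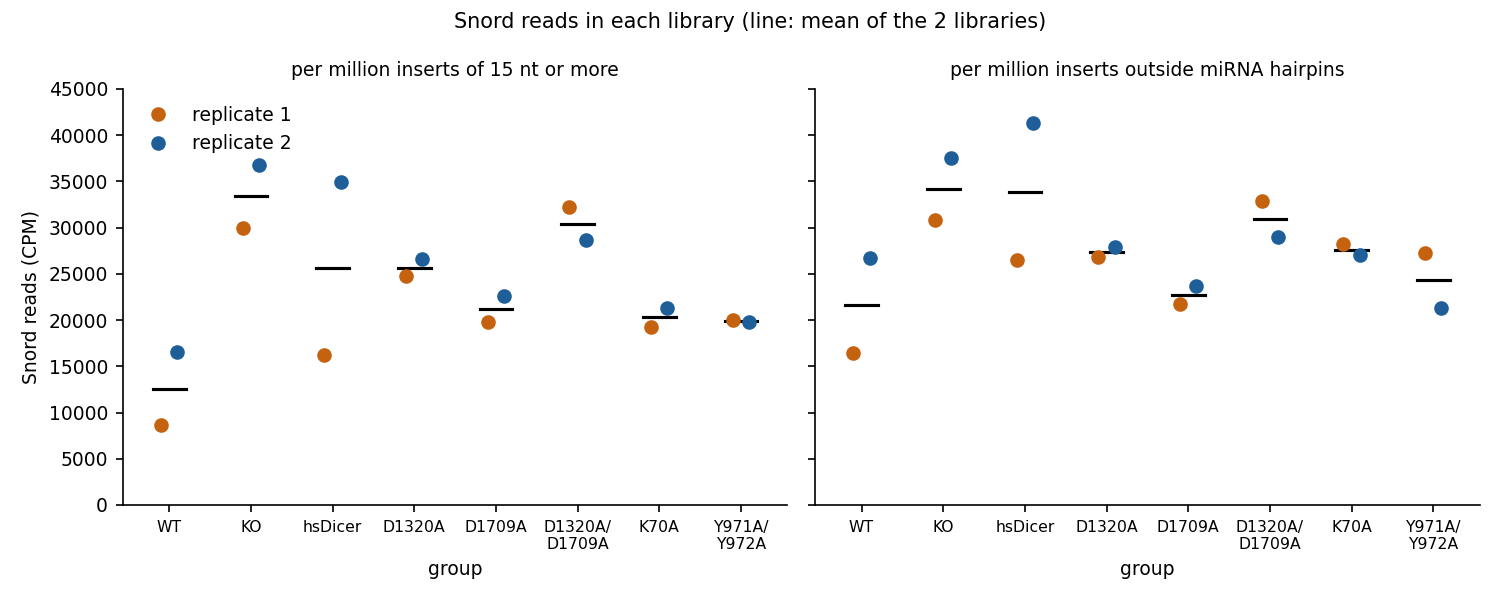
Snord reads in CPM of all inserts of 15 nt or more (left) and of inserts outside miRNA hairpins (right) in each library by group, with the mean of the 2 libraries as a line. The 2 WT libraries lie below the 2 KO libraries in both panels, and the libraries of hsDicer span most of the range of the mutants.

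By gene, no Snord member passed in any group comparison by edgeR. In KO against WT, edgeR's quasi-likelihood test with Benjamini-Hochberg adjustment over all 878 features called 0 of 76 members, and 0.569% of all features (none higher, 5 lower). At an unadjusted p under 0.05 there was 1 member, Snord91a (log2 7.70, SE 3.89, adjusted p = 0.89 by edgeR). It was at 0.116 and 6.24 CPM in WT and at 1296 and 26.2 CPM in KO, so the size of its change came mostly from KO replicate 1. The median log2 difference of the 76 members was 1.37 and that of all features 0. With scaling to inserts outside hairpins these were 0.71 and 0.

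The libraries of KO lay wholly above those of WT for 14 of 76 members (18.4%), against 5.92% of all features, and wholly below for 0 members, against 9.79% of all features. Scaled to inserts outside hairpins, 9 members lay above and 5 below, against 3.99% and 10.9% of all features. The 14 included Snord43, Snord57, Snord42a, Snord45b and Snord45c. In CPM of all inserts, 67 of 76 members were higher in KO in replicate 2 alone. In replicate 1, with its few distinct fragments, 33 were. These counts set 1 library against 1, and the share over all features is not given beside them. In the fit, the log2 difference was above 0 for 60 of 76 members, and for 49 with scaling to inserts outside hairpins. DESeq2, tried as an alternative, called 10 members higher in KO, against 3.3% of all features (29 of 878, of which 520 had an adjusted p). They were Snord21, Snord42b, Snord43, Snord45b, Snord57, Snord59a, Snord70, Snord73a, Snord88a and Snord91a. For 7 of these 10 (all but Snord43, Snord45b and Snord57) KO replicate 1 was at 656 to 1500 CPM while KO replicate 2 was at 26.2 to 207 CPM. DESeq2 scaled libraries by its own size factors and not by inserts, and all 10 calls rest on that scale. It gave Snord43 a log2 of 5.59 and Snord57 one of 4.87. In CPM, Snord57 was at 239 and 645 in WT and at 1730 and 1509 in KO. The part of the scaling in these calls was not tested.

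Against KO, hsDicer also gave 0 of 76 members called (0.683% of all features), with a median log2 of -0.22. DESeq2, again with its own size factors, called 7 lower in hsDicer, against 2.16% of all features. Of the 7, Snord12 was not among the 10 above: it was at 1854 and 241 CPM in KO and at 1.04 and 254 CPM in hsDicer. KO libraries enter both comparisons, so their calls are not independent.

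The mutants were each compared with hsDicer, whose 2 libraries all 5 comparisons share. Members called were 0 of 76 in D1320A (0.114% of all features called, median log2 of members 0.49), 0 in D1709A (0.342%, 0.12), 0 in D1320A/D1709A (1.14%, 0.31), 0 in K70A (0.0%, -0.21) and 0 in Y971A/Y972A (0.0%, -0.36). No member was under an unadjusted p of 0.05 by edgeR in these 5 comparisons, and DESeq2 called 0 in each. These counts do not show that the groups are alike: edgeR put the shared coefficient of variation between libraries of a group at 2.04.

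The lists by function or host gave no call by edgeR in any group comparison. DESeq2 called Snord57, of the Nop56 list, in KO against WT, as given above. The list named pre-rRNA processing was drawn up for snoRNAs that do not only guide methylation. Among its 7 tested members, Snord118 (U8) had 75.9 CPM on average and Snord13 (U13) 84.1. Both have genes of their own, outside any host, and Snord118 was at 41.8 to 120 CPM in replicate 2 and from 0 to 302 CPM in replicate 1. The pre-rRNA processing list as a whole summed to 405 ± 289 CPM. The 3 tested members of Gas5, Snord47, Snord78 and Snord80, summed to 752 ± 326 CPM, and Snord78 gave a 28 nt fragment that was its most read in all 16 libraries, as shown above. The 4 of Rpl13a, Snord32a, Snord33, Snord34 and Snord35a, summed to 406 ± 227 CPM, led by Snord34 at 261 CPM. Snord22, of Snhg1, had 56.7 ± 103 CPM. Of 2 snoRNAs that guide U6 RNA, Snord8 was tested and had 3.24 CPM. Of 19 names of the Prader-Willi region, which neurons express, Snord64 alone had reads, at 1.41 ± 3.08 CPM. The annotation held no Snord symbol for the lists of Rpl7a and of the Dlk1-Dio3 region.

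Replicate 2 libraries of different groups resembled each other more closely than the 2 libraries of any group did. Across the 76 genes, Spearman correlations of levels were 0.909 to 0.969 between replicate 2 libraries of different groups (28 pairs), 0.557 to 0.917 between replicate 1 libraries, and 0.649 to 0.853 between the 2 libraries of a group. These are across genes of libraries that share a replicate number, and are given as a description. All 76 levels entered, and reads from all 16 libraries were present for 36 genes, while 61 had reads in all 8 replicate 2 libraries.

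In a fit with group and replicate number, 7 of 76 members were higher in replicate 2 and 0 lower, against 5.81% and 0.569% of all features (6.38% in all). The 7 were Snord110 (log2 6.14, SE 1.25, adjusted p = 0.0081 by edgeR), Snord111 (10.88), Snord14e (9.08), Snord17 (10.15), Snord35b (10.23), and, below 10 CPM on average, Snord14c (8.94) and Snord65 (8.70). The median log2 of the members was 3.52 and that of all features 2.19. Snord17 was at 36.01 to 112 CPM in replicate 2. In replicate 1 it was at 64.2 and 48.0 CPM in D1320A and D1709A and at or below 0.0694 in the other 6 libraries. Snord111 likewise had 32.4 and 20.2 CPM in those 2 libraries and at most 0.0566 in the other 6. These are the 2 replicate 1 libraries with the most distinct fragments, and the part of library variety in these calls was not tested. With any single library of D1320A or D1709A left out, 20 to 24 members were higher, against 21.4% to 22.6% of all features. With any other single library left out 1 or 2 were, against 0.229% to 1.1%. With inserts of 15 to 36 nt alone, 3 members were higher (Snord14e, Snord68 and Snord98), against 2.61% of all features, and the log2 of Snord14c was -0.0075. With shared reads split equally, 0 were, against 0.248% of all features. The leading fragments of Snord110, Snord111 and Snord14c are 37, 40 and 40 nt long, within the lengths that replicate 1 could not trim.

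Lengths of the fragments also differed by replicate number, among reads of 15 to 36 nt. The share of 25 to 29 nt was 53.8% ± 6.12 in replicate 1 and 71.5% ± 2.26 in replicate 2 (8 libraries each), higher in replicate 2 in 8 of 8 groups (exact paired permutation p = 0.0078, the smallest possible; 0.031 adjusted over 8 measures). The share of 20 to 24 nt was 12.3% ± 3.50 and 4.96% ± 1.47, lower in 8 of 8 (the same p-values). The share of 30 to 36 nt was 28.4% ± 7.12 and 20.8% ± 1.15 (exact paired permutation p = 0.016, adjusted 0.042). The differences did not hold with genes weighted equally, where they were 3.92 percentage points for 25 to 29 nt, 0.55 for 20 to 24 nt and -4.15 for 30 to 36 nt, none past the threshold. The length most read was 29 nt in 15 of 16 libraries and 28 nt in KO replicate 1. In replicate 2 the 29 nt class alone held 57.3% of these reads, and 17.2% without Snord2.

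**Figure D5:**
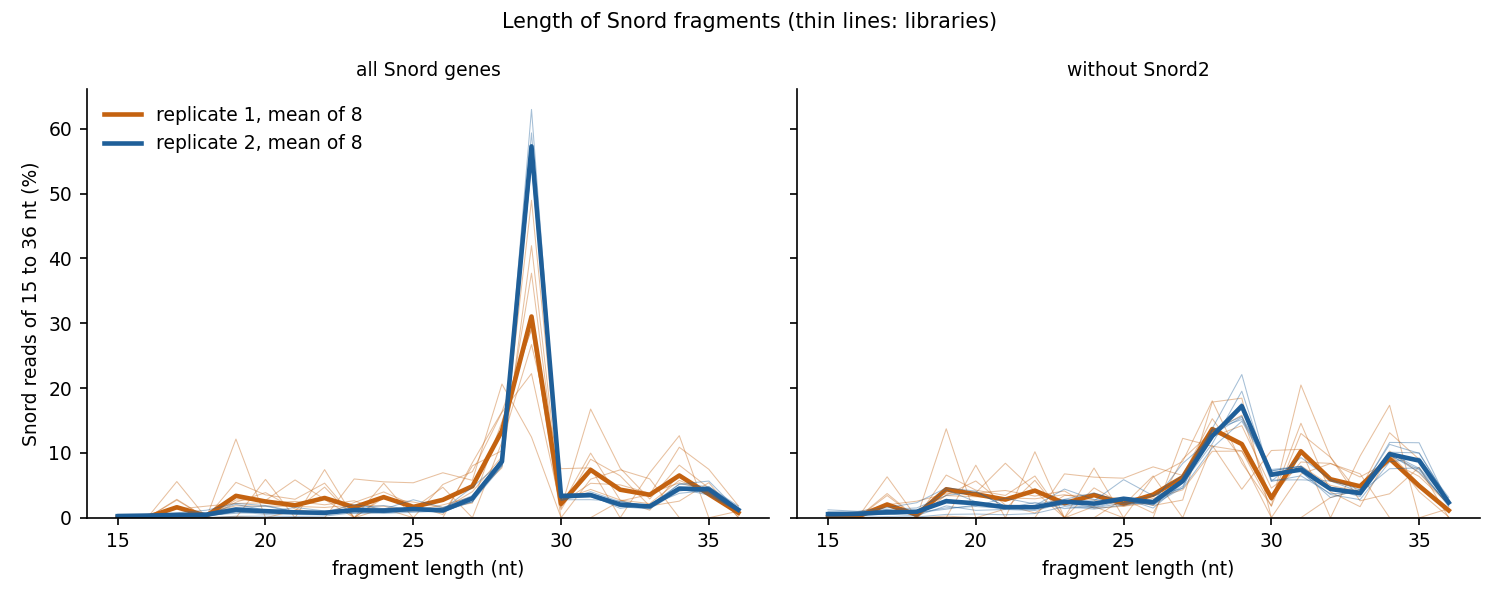
Percent of Snord reads by fragment length from 15 to 36 nt, for all Snord genes (left) and without Snord2 (right); thin lines are libraries and thick lines means of 8. The peak at 29 nt (57.3% in replicate 2) shrinks to 17.2% without Snord2, and a lower rise near 34 nt remains.

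Reads from the 5′ end of the gene (starting within 5 nt of it) were 33.1% ± 8.95 of Snord reads in replicate 1 and 39.1% ± 7.20 in replicate 2, and reads that stopped within 5 nt of the 3′ end were 52.8% ± 11.03 and 49.7% ± 3.27 of those with adapter. Neither differed past the threshold (exact paired permutation p = 0.12 and 0.50). By group, the 5′ end share was 13.7% and 34.1% in WT, 35.2% and 40.4% in KO and 41.1% and 50.99% in hsDicer. It was 30.99% to 44.6% in the libraries of D1320A, D1709A and K70A. The libraries of WT, KO and hsDicer did not overlap in this order, and those of D1320A/D1709A (37.9% and 35.4%) and Y971A/Y972A (30.4% and 28.7%) also lay wholly below those of hsDicer. Each of these 5 pairs has p = 0.333 by the exact permutation test, the smallest possible, and 0.53 adjusted over 8 pairs. The 5′ end share counts reads of all lengths. Reads without adapter were 18.3%, 34.2% and 50.6% of the Snord reads in WT, KO and hsDicer of replicate 2, and 13.6%, 27.9% and 14.8% in replicate 1. Their part in this order was not tested.

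Long fragments were common. Snord reads over 36 nt were 28.5% ± 12.7 of the members' reads in replicate 1 and 45.1% ± 13.4 in replicate 2, but inserts of 37 to 40 nt in replicate 1 and of 47 to 50 nt in replicate 2 could not be trimmed, so the shares are not comparable. Reads without adapter, which match over all 41 or 51 nt, made up 1174 to 11919 CPM in replicate 1 and 1052 to 17692 CPM in replicate 2. In replicate 1 they include the Snord110 reads of 41 nt (0 to 281 CPM), which can come from inserts of 37 nt. In replicate 2, 54.8% to 70.4% of them started within 5 nt of the annotated 5′ end of the gene. The RNA was cut from a gel at 15 to 50 nt, and whole snoRNAs are mostly longer than that. Yet the replicate 2 reads without adapter matched over all 51 nt, past this range. They were 5.31% to 50.6% of the Snord reads of a replicate 2 library. Whether they came from whole snoRNAs was not tested.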

How the data were processed

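Per the labels' protocols, Trizol RNA was run on a gel, the 15 to 50 nt range was cut out, and Illumina's small RNA protocol was followed. The authors deposited counts: each distinct untrimmed read with its number of copies. The tool for this step is not given in sources used here. The 3′ adapter in the labels was removed where 12 bases matched inside the read or 5 or more at its end. Inserts of 15 nt or more were matched without mismatch to GENCODE M21 transcripts (GRCm38). The genome sequence was not used, so reads that run past an annotated end were not counted.

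Reads of 1 name were tested over 878 features with 20 or more reads, with edgeR 4.0.16 quasi-likelihood in R 4.3.3, all 16 libraries, library size as inserts of 15 nt or more, 2-sided, Benjamini-Hochberg adjusted p under 0.05. The SE of a log2 change is approximate. Single values were compared by exact permutation. Alternatives were scaling, TMM, DESeq2 1.42.0, no filter, the replicate block, other insert lengths, split reads and each library left out. DESeq2 used its own size factors. The fit was tested on simulated data: it made calls where the simulated spread was low, and none where every feature had the shared spread of these libraries. With the real libraries the same fit did call features (5 of 878 in KO against WT), so the simulation does not give the power for these data. A lack of calls does not show that levels are alike. Python 3.11.15 was used for counting. Members and lists were chosen with earlier results of these data known. Named are the 12 genes with the highest mean CPM, called genes of 10 CPM or more with the largest changes (5 in each direction), and 2 to 4 members of each list.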

Additional observations from a re-analysis of the deposited data

How the results depend on the processing

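No Snord gene was called in any of the 7 group comparisons under TMM, scaling outside hairpins, no filter, other insert lengths or split reads. DESeq2 called 10 in KO against WT and 7 in hsDicer against KO, and leaving out 1 library gave 0 to 1 in KO against WT (1 without WT replicate 2). With the replicate block edgeR called 0 in all 7. The labels do not say that a number pairs libraries, and deviations of same-numbered libraries correlated at -0.064 to 0.35. For replicate 2 against replicate 1, 7 became 3 with inserts of 15 to 36 nt, 0 with split reads, 36 with DESeq2 (35 higher, against 228 of all 878 features) and 1 to 24 with 1 library left out, and Snord14c turned to -0.0075. Scaling outside hairpins moved the mean level to 21591 CPM in WT, 27348 in D1320A, 27625 in K70A and 24309 in Y971A/Y972A. Inserts of 15 to 36 nt gave 19017 in KO, 13938 in D1320A, 11140 in D1709A, 22036 in D1320A/D1709A, 12293 in K70A and 15117 in Y971A/Y972A, and inserts of 18 nt or more 19532 in Y971A/Y972A. The log2 difference from hsDicer turned to -0.31 (outside hairpins) and -0.0025 (18 nt or more) in D1320A, -0.13 (outside hairpins) in D1320A/D1709A and 0.27 (15 to 36 nt) in Y971A/Y972A; that of replicate 2 from replicate 1 turned to -0.075 (15 to 36 nt). With genes weighted equally, the 5′ end share was 47.8% and its replicate difference -0.076 points, and the shares of 20 to 24, 25 to 29 and 30 to 36 nt were 18.2%, 28.8% and 45.9%, with differences of 0.55, 3.92 and -4.15 points. With ends within 2 nt, the 3′ end share was 11.4% and its difference -7.63 points (exact permutation p = 0.0078). The causes were not tested. For the 7 genes called by replicate number, taken one by one, 78 of the values under alternatives kept the call, 82 lost it and 1 reversed. A gene with 0 reads could be at up to 0.146 to 0.29 CPM, the limit that 3 counts allow, for counting error only.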
